A study of Homo sapiens with 2 samples.

Results

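The 6 miRNAs described here are miR-320a, miR-320b, miR-320c, miR-320d, miR-484 and miR-877-5p, which were chosen by name as miRNAs whose precursors bypass cleavage by Drosha. All 6 were found among the 1213 entries of the deposited table, of which 1178 carry miRNA names. Small RNAs were sequenced from 2 cultures of UM-SCC6, a human cell line from an oral squamous cell carcinoma. UM-SCC6-M is the subline recovered after 3 rounds of collecting the cells that invaded through a matrix channel of a microfluidic chip, and the labels call it highly invasive with some mesenchymal traits. UM-SCC6 is the unselected parental line. Each culture gave 1 library, so no difference has a replicate check, no test between the conditions was made, and the selection cannot be told apart from any other difference between the cultures or library preparations.

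Most miRNAs are cut out of a long primary transcript by the nuclear enzyme Drosha and then trimmed to a short duplex by Dicer. A few hairpins skip the Drosha step. In mouse cells the hairpins of miR-320 and miR-484 are made directly as short capped transcripts whose start is the start of the hairpin, and Dicer cuts them afterwards. Mirtrons, of which miR-877 is an example, are short introns that the spliceosome releases and that fold into a hairpin once debranched. Processing itself was not measured here, and no measurement shows that miR-320b, miR-320c and miR-320d bypass Drosha as the grouping assumes.

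The mature sequences show which members a read can tell apart. They are given from RefSeq (GRCh38.p14), with the seed, bases 2 to 8 from the 5′ end, in capitals. RefSeq sequences were matched for 5 of the 6 members, and none is printed for miR-320a.

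miR-320b: aAAAGCUGgguugagagggcaa
miR-320c: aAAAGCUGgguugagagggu
miR-320d: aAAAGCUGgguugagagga
miR-484: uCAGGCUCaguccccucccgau
miR-877-5p: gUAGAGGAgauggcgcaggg

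miR-320b, miR-320c and miR-320d share their first 18 bases and differ in what follows, which is 4 bases in miR-320b, 2 in miR-320c and 1 in miR-320d. Of the 2370 mature names with a RefSeq sequence available here, these 3 alone begin with those 18 bases. That set is incomplete and lacks miR-320a. A read that ends within the shared stretch fits all 3. Whether it also fits miR-320a, the most abundant member, was not checked, since no sequence of it was matched. How such reads were assigned is not given in the sources used here. miR-4429, whose seed is also AAAGCUG, was listed at 0 in both libraries. miR-320e starts 1 base further in, so its bases 2 to 8 are AAGCUGG, and it was listed at 0 too. Values under 1 normalized read are listed as 0, and the lowest listed values stood for 9 reads in UM-SCC6-M cells and 8 in parental cells. The seed of miR-484 is shared by miR-3155a, listed at 0 in both libraries, and by miR-3155b, at 0 in UM-SCC6-M cells and 1.86 normalized reads in parental cells. No other of the RefSeq sequences available here has the seed of miR-877-5p.

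The hairpins were located in RefSeq and set against GENCODE release 29, both on GRCh38. The deposited table itself gives no positions. The hairpin of miR-877 is shown because its ends are those of an intron. Both mature arms are in capitals.

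MIR877: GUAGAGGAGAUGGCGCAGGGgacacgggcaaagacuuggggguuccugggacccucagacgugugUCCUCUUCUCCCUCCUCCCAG

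This hairpin (chr6:30584332-30584417, plus strand, 86 bases) coincided base for base with an annotated intron of ABCF1, a gene for an ATP-binding protein that takes part in translation. It begins with GU and ends with AG, the letters at the ends of most introns. Of the 1562 RefSeq hairpins available here, 23 (1.47%) coincided exactly with an annotated intron. All 23 had these letters at their ends, as had 36 hairpins (2.30%) in all. miR-877-5p lies at the start of the intron (bases 1 to 20) and miR-877-3p at its end (bases 66 to 86).

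The hairpin of miR-484 (chr16:15643294-15643372, plus strand) lay in an exon of NDE1, which encodes a dynein-associated protein, and began 27 bases after an annotated NDE1 transcript start. The hairpins of miR-320b, miR-320c and miR-320d were not near an annotated start. MIR320B2 (chr1:224257040-224257110, minus strand) lay in an intron of NVL, on the strand of that gene. MIR320C1 (chr18:21683518-21683589) and MIR320C2 (chr18:24321675-24321746), both on the plus strand, lay opposite introns of ABHD3 and OSBPL1A. MIR320B1 (chr1:116671746-116671817, plus strand), MIR320D1 (chr13:40727816-40727887, minus strand) and MIR320D2 (chrX:140926160-140926231, minus strand) overlapped no other annotated gene. Among these 6 hairpins the shortest distance from the centre to any annotated start was 3130 bases, for MIR320D1. Since miR-320b, miR-320c and miR-320d each come from 2 loci, their reads do not tell which hairpin they came from. The first locus of each is shown with the mature product in capitals, which stood on the 3′ side of the hairpin in all 3.

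MIR320B1: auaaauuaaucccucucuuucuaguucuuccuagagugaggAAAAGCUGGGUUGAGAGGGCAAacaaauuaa
MIR320C1: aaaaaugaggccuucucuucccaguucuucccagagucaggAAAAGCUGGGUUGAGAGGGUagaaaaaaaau
MIR320D1: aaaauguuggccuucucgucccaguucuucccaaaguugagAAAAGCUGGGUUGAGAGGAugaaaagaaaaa

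The entries of the table summed to 7699490 recovered reads in UM-SCC6-M cells and 8182958 in parental cells. These sums are not library sizes, since entries listed at 0 in both libraries and reads outside the table are not in them. Some reads also count under more than 1 name, as for miR-550a-5p and miR-550a-3-5p, both with 95 reads against 117. The deposited values, here called normalized reads, carry a scaling that the authors do not name. Each log2 ratio has UM-SCC6-M above parental. Intervals are at the 95% level and hold only the error of counting, because each culture gave 1 library. PCR copies are not separate molecules, so the intervals may be too narrow even for that error. Of 8 names listed as epithelial, 5 were in the table and all 5 were above 0 in at least 1 library, and they did not move together. The absent names were miR-141-3p, miR-205-5p and miR-203a, which the list held beside miR-203a-3p. miR-200b-3p had 17481 against 12823 normalized reads (log2 ratio 0.45) and miR-200a-3p 1344 against 2674 (-0.99). miR-429 had 793.1 against 844.7 (-0.091), and miR-200c-3p and miR-203a-3p were under 3 in both libraries. The 5 fibroblast miRNAs summed to 25.9 normalized reads in UM-SCC6-M cells and 22.6 in parental cells, but the members went both ways. miR-199a-3p had 21.9 against 10.5 (log2 ratio 1.05, interval 0.67 to 1.46), miR-143-3p 4.06 against 10.4 (-1.34, interval -1.98 to -0.75) and miR-199a-5p 0 against 1.73, while miR-145-5p and miR-214-3p were at 0 in both. The endothelial miR-126-3p stood at 519.9 against 968.3 normalized reads, and the blood miRNA miR-486-5p at 17.9 against 24.6 (log2 ratio -0.46, interval -0.78 to -0.14), while miR-451a and miR-142-3p were listed at 0. Whether other cell types contributed to the values below was not tested.

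The levels of the 6 miRNAs differed little between the invasive subline and its parent. None of the 6 was 2-fold apart, while 20.1% of the 179 miRNAs that reached a floor of 50 normalized reads in either library were (36 miRNAs, 7.26% higher and 12.8% lower in UM-SCC6-M cells). Of the 6, 3 reached that floor, namely miR-320a, miR-320b and miR-484. At a difference of 1.5-fold the background was 43.6% of 179, and still none of the 6 was that far apart. With only 3 members at the floor, these counts are too few to be told apart from the background shares. The counting intervals of all 6 lay within 2-fold, and those of 5 within 1.5-fold, the exception being miR-320d.

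miR-320a, the most abundant member, represses targets through the seed it shares with its paralogs. Its hairpin, on chromosome 8, overlapped no other annotated gene in GENCODE, and its centre was 102 bases from an annotated start of POLR3D, a gene for an RNA polymerase III subunit on the opposite strand. miR-320a stood at 1733 normalized reads in UM-SCC6-M cells, against 1853 in parental cells. The read numbers behind them were 14510 and 13943. The log2 ratio was -0.10, with an interval of -0.13 to -0.063, which is 1.07-fold below the parental level. As a share of the summed reads of the table miR-320a was larger in UM-SCC6-M cells, at 0.188% (exact Clopper-Pearson interval 0.185 to 0.192) against 0.170% (0.168 to 0.173), so its sign depends on the scaling. miR-320a ranked 48 among all entries in UM-SCC6-M cells and 47 in parental cells.

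The other miR-320 members were less abundant in the order of their length. miR-320b had 103.9 normalized reads in UM-SCC6-M cells and 103.5 in parental cells (870 and 779 reads), a log2 ratio of 0.0050 (-0.14 to 0.15). Under the authors' scaling no other of the 179 miRNAs at the floor was closer to 0. miR-320c had 24.1 against 28.0 normalized reads (202 and 211 reads), the lowest ratio of the 6 at -0.22, with an interval of -0.50 to 0.068. miR-320d had 7.16 against 7.71 normalized reads (60 and 58 reads) and a ratio of -0.11 (-0.65 to 0.44). For miR-320c and miR-320d a difference between the libraries was not detectable at this depth.

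Reads that fit several miR-320 names may have been divided between them or counted under each, and a sum over the family allows for the first but not the second. Summed over its 4 members the family had 1868 normalized reads in UM-SCC6-M cells and 1992 in parental cells. The log2 ratio of the sum was -0.093 (-0.13 to -0.061). miR-320a made up 92.8% of the family reads in UM-SCC6-M cells (interval 92.3 to 93.2) and 93.0% in parental cells (92.6 to 93.4). miR-320b made up 5.56% against 5.20%, miR-320c 1.29% against 1.41% and miR-320d 0.384% against 0.387%. The intervals of the 2 libraries overlapped for each member, which is not a test of a difference. For every pair within the family, the interval of the difference of log2 ratios, described below, included 0. Reads shared between the names are not allowed for in either kind of interval. Without miR-320a the sum was 135.2 against 139.3 normalized reads and its ratio -0.043 (-0.17 to 0.080).

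miR-484 had 282.9 normalized reads in UM-SCC6-M cells, against 308.6 in parental cells, from 2369 and 2322 reads. This gave a log2 ratio of -0.13 (-0.21 to -0.042). As with miR-320a, the share of the summed reads went the other way, at 0.0308% (0.0295 to 0.0320) in UM-SCC6-M cells and 0.0284% (0.0272 to 0.0296) in parental cells.

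miR-877-5p, the mirtron product, had 46.9 normalized reads in UM-SCC6-M cells and 46.1 in parental cells. It had 393 and 347 reads and a log2 ratio of 0.025 (-0.19 to 0.24). The other arm of the same intron, miR-877-3p, had 5.49 against 3.46 normalized reads on 46 and 26 reads, a ratio of 0.66 (-0.055 to 1.42). It supplied 10.5% of the miR-877 reads in UM-SCC6-M cells (7.77 to 13.7) and 6.97% in parental cells (4.60 to 10.05). The difference of the arms' log2 ratios was 0.63 with a counting standard error of 0.37, so no change of arm was detectable at this depth.

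**Figure D1:**
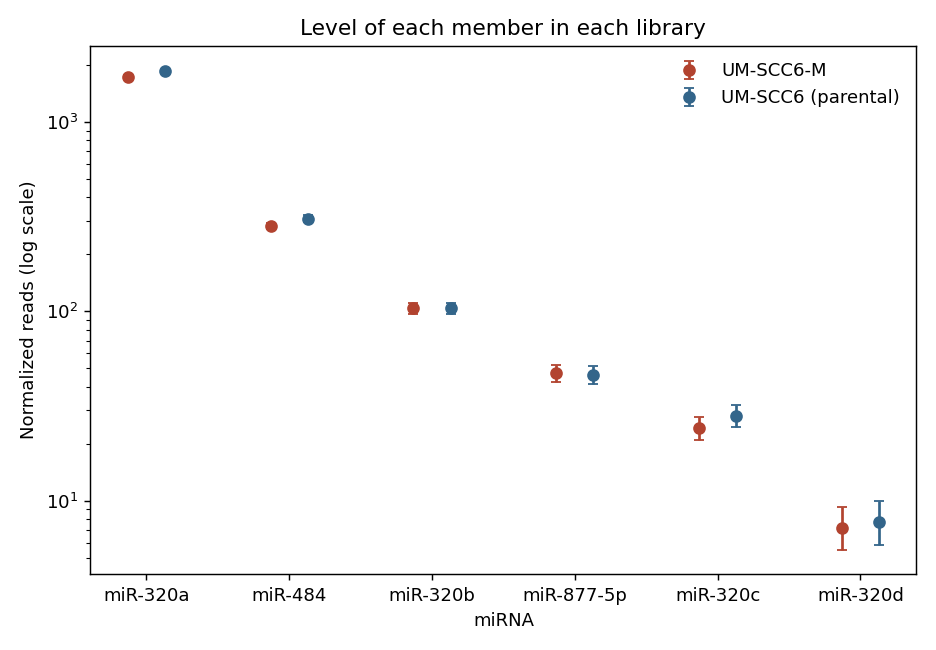
Normalized reads (log axis) of each member, in order of level, with the UM-SCC6-M library on the left and the parental library on the right of each pair. Points are single libraries and bars exact Poisson 95% intervals of the reads. The order from miR-320a (1733 against 1853) to miR-320d (7.16 against 7.71) was the same in both libraries.

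Both libraries ranked the 6 alike, in the order miR-320a, miR-484, miR-320b, miR-877-5p, miR-320c and miR-320d. The counting intervals of neighbours in this order did not overlap in either library. For example, miR-320b spanned 97.1 to 111.0 normalized reads and miR-877-5p 42.4 to 51.8 in UM-SCC6-M cells. The highest member exceeded the lowest 242-fold in UM-SCC6-M cells and 240-fold in parental cells. These are reads per miRNA, and the 5 matched mature sequences are of similar length, at 19 to 22 bases.

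**Figure D2:**
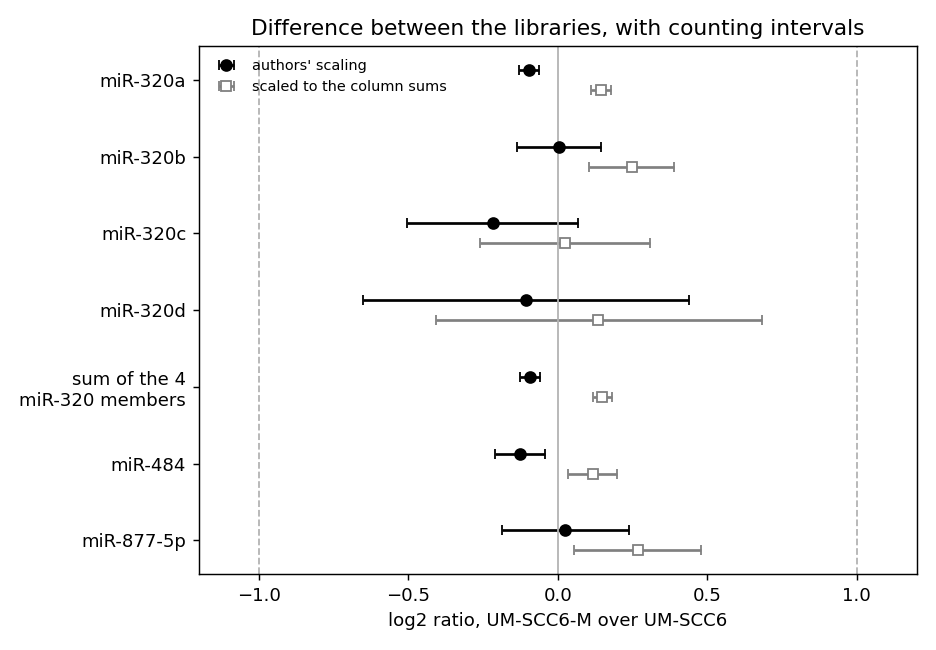
Log2 ratio of UM-SCC6-M over parental for each member and for the summed miR-320 members. Filled circles use the authors' scaling, open squares the column sums, bars are exact 95% counting intervals and dashed lines mark 2-fold. Every interval lies inside the dashed lines, and the signs of miR-320a (-0.10 and 0.15) and miR-484 (-0.13 and 0.12) differ between the scalings.

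The small differences from 0 could not be given a direction. Under the authors' scaling the intervals of 2 members, miR-320a and miR-484, excluded 0, both below it. Scaling both libraries to their column sums moves every log2 ratio up by 0.24. The ratios were then 0.15 for miR-320a, 0.25 for miR-320b, 0.025 for miR-320c, 0.14 for miR-320d, 0.12 for miR-484 and 0.27 for miR-877-5p. The intervals of 4 members then excluded 0, all above it, and those of all 6 still lay within 2-fold. This scaling put the median log2 ratio at 0.14 for the 6 and at 0.28 for the 179 miRNAs at the floor. Under the other scalings tried, given in the last section, miR-320a and miR-484 stayed below 0.

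The median log2 ratio of the 6 was -0.10, and that of the 179 miRNAs at the floor was 0.037. All 6 lay between the lower quartile (-0.61) and the upper quartile (0.41) of the 179, a position that no rescaling of a library can change. Under the authors' scaling the median distance from 0 was 0.10 for the 6 and 0.50 for the 179. Of the 179, 44 (24.6%) were as close to 0 as miR-320c, the member farthest from it.

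**Figure D3:**
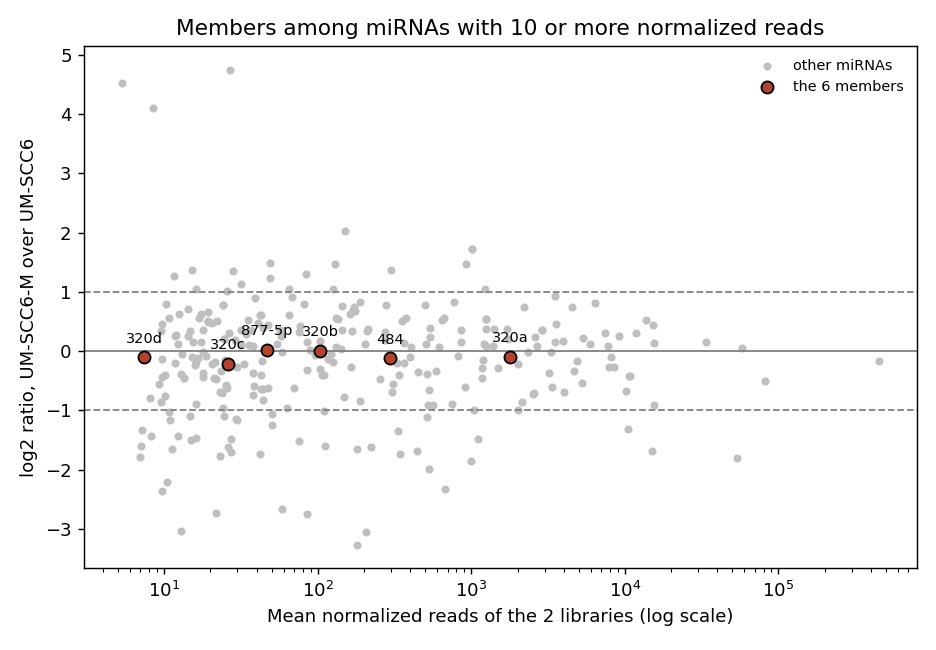
Log2 ratio of UM-SCC6-M over parental against mean normalized reads (log axis) for miRNAs that reached 10 normalized reads in either library (grey), with the 6 members in red, including miR-320d, which lies below that floor. Dashed lines mark 2-fold. The members span mean levels of 7.44 to 1793 normalized reads and ratios of -0.22 to 0.025.

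Members were also set against each other, which removes the scaling. In none of the 15 pairs did the counting interval of the difference of the log2 ratios exclude 0, taken without adjustment for the number of pairs. For pairs within the miR-320 members the intervals take no account of reads that were divided between the names or counted under each. The most precise pair was miR-320a and miR-484, with 6.12 reads of miR-320a for each read of miR-484 in UM-SCC6-M cells and 6.005 in parental cells. Their log2 ratios differed by 0.029 (-0.061 to 0.12), and for this pair a relative shift beyond 0.12 was outside the interval. The largest difference, between miR-320c and miR-877-5p, was -0.24 (-0.59 to 0.11). miR-320b had 4.31 reads for each read of miR-320c in UM-SCC6-M cells and 3.69 in parental cells, a difference of 0.22 (-0.089 to 0.53).

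**Figure D4:**
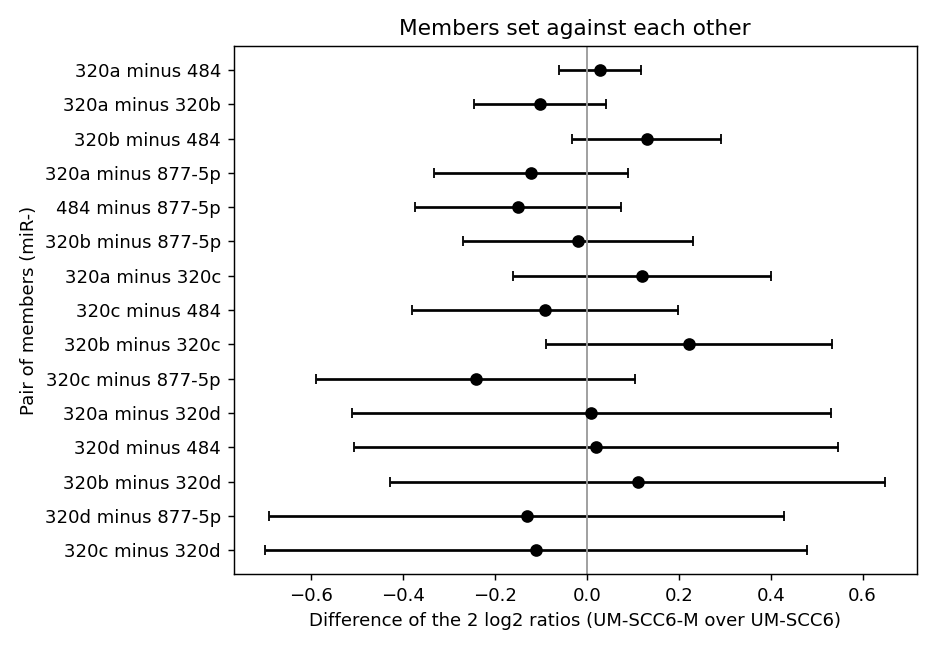
Difference between the log2 ratios (UM-SCC6-M over parental) of each of the 15 pairs of members, with 95% counting intervals as bars, most precise at the top. All 15 bars cross 0, from 0.029 for miR-320a minus miR-484 to -0.24 for miR-320c minus miR-877-5p.

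The same interval was drawn between each member and the 176 other miRNAs at the floor, as a partial background for this. It included 0 for 10 of them with miR-320a (5.68%), for 15 with miR-484 (8.52%) and for 30 with miR-320b (17.0%). With miR-877-5p it included 0 for 41 (23.3%), with miR-320c for 42 (23.9%) and with miR-320d for 93 (52.8%). The share is larger for members with fewer reads, whose intervals are wider. These shares are not a like background for the pairs of members. The 176 all reached the floor, while miR-320c, miR-320d and miR-877-5p did not. Pairs of members had counting standard errors of up to 0.30, against 0.045 for miR-320a and miR-484.

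The authors' deposited table holds a p-value and a q-value for each member that compare these 2 libraries and not the conditions. In the authors' deposited table miR-320a had a log2 fold change of -0.097, a p-value of 0.0025 and a q-value of 0.0156, the only q-value under 0.05 among the 6, against 150 of 854 entries (17.6%). The q-values of the others in the authors' deposited table were 0.783 for miR-320b, 0.968 for miR-484 and 0.991 for miR-320c, miR-320d and miR-877-5p. None of the 6 is among the 44 entries marked as selected there, whose smallest absolute log2 fold change was 1.01. The order of these values does not follow the fold changes, since miR-320b at 0.0051 has a smaller p-value (0.216) than miR-320c at -0.22 (0.9502) in the authors' deposited table. The p-values were matched within 0.00105 for all 6 by reading the scaled values as counts and setting them against the 2 column sums, with a normal approximation. Over 287 miRNAs with at least 10 normalized reads the median gap was 0.000374. Setting the same values against a log2 ratio of 0 gave gaps of up to 0.763 for the 6. By that match the deposited p-value of miR-320a refers to a ratio of 0.15 relative to the column sums, while the fold change beside it is negative.

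Other miRNAs known for unusual processing were then looked up. Of all 1213 entries, 558 (46.0%) were above 0 in at least 1 library. Of 22 mirtron products on the list used here, 10 were in the table and 2 were above 0. These were miR-877-3p and miR-1226-3p. The latter, from an intron of the helicase gene DHX30, had 2.63 against 1.06 normalized reads (22 and 8 reads). Its log2 ratio was 1.25 (0.083 to 2.68), on values near the lowest listed. The other 8 were listed at 0 in both libraries, among them miR-1224-5p, miR-1227-3p and both arms of miR-1228. Of the hairpins that coincide with an annotated intron, 13 mature products were in the table, and miR-877-5p, miR-877-3p and miR-1226-3p were the 3 above 0. From hairpins within small nucleolar RNAs, 8 of 9 listed names were in the table and 6 were above 0. miR-664a-3p was the 1 that reached 10 normalized reads, at 29.4 against 23.8 and a log2 ratio of 0.30 (0.021 to 0.59). Below that floor miR-1291 had 46 reads against 15, a ratio of 1.43 (0.60 to 2.41), and miR-1292-5p had 40 against 55, a ratio of -0.61 whose interval (-1.24 to 0.00012) included 0. The rest below it were nearer 0, with intervals that included 0. miR-664b-3p had 39 reads against 30 (ratio 0.22, interval -0.50 to 0.96). miR-664a-5p had 14 against 11 (0.18) and miR-1248 9 against 8 (0.0062). miR-451a, which needs Drosha but is finished by Argonaute 2 in place of Dicer, was listed at 0 in both libraries.

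The miRNAs most like each member were found by the distance between their log2 values over the 2 libraries. The nearest to miR-320a were let-7e-5p (1857 against 1609 normalized reads, distance 0.23) and miR-140-3p (1852 against 2168, distance 0.25). miR-193b-3p and miR-31-5p were nearest to miR-320b, and miR-500a-3p and miR-744-5p to miR-484. miR-501-5p (distance 0.029) and miR-125a-3p were nearest to miR-320c, let-7f-1-3p and miR-7976 to miR-320d, and miR-132-5p and miR-374b-3p to miR-877-5p. With 2 libraries this likeness describes level and ratio only.

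Base composition varied among the members. Of the 179 miRNAs at the floor, 158 (88.3%) had a RefSeq sequence, with a median of 47.8% G or C. miR-877-5p had 65% and miR-484 63.6%, while miR-320b and miR-320c had 50% and miR-320d 47.4%. Across these 158 miRNAs the log2 ratio and the G and C content had a Spearman correlation of -0.030, given as a description of miRNAs that share the same 2 libraries. The median log2 ratio was -0.095 for the 21 miRNAs with 60% or more and 0.037 for the 137 with less.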

How the data were processed

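Per the labels' protocols, each library took 3 µg of total RNA, had adapters ligated to both ends and was cut from a gel at 140 to 160 bp. Bowtie was used, per the submitters' processing notes; the sources used here name neither its version nor the genome build, miRNA release or scaling. The authors deposited 1 table of signal values, called normalized reads here, with their own log2 fold changes, p-values, q-values and other marks of selection.

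All values were whole multiples of a step that is constant within a library (0.119 for UM-SCC6-M, 0.133 for parental, largest deviation 7.16e-05 reads), and reads were recovered by dividing by it. Where 1 library was listed at 0, its reads followed from the deposited fold change. Log2 ratios have 0.5 reads added. Intervals are exact binomial (ratios and shares), exact Poisson (levels) or from counting standard errors (pairs). With 1 library per group no count model was run. A miRNA counted as apart at 2-fold or more if either library reached 50 normalized reads. Base composition and loci used RefSeq (GRCh38.p14) and GENCODE 29 by exact name; 1037 table names had a RefSeq sequence.

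Alternatives were other scalings, floors, thresholds, values added before the log and the deposited fold changes. The members and lists were chosen with earlier results of these data known. Named beside the members were products of the same hairpins and seeds, list members at 10 or more normalized reads, the 2 nearest miRNAs per member and cell type markers; miRNAs below 10 normalized reads were named after their values were seen. The script was tested on simulated counts. Python 3.11.15, numpy 2.4.6, pandas 2.3.3, scipy 1.17.1 and matplotlib 3.10.9 were used.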

Additional observations from a re-analysis of the deposited data

How the results depend on the processing

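None of the 6 members was counted as apart under any of the 11 alternatives to that count. These were other scalings, other floors, 5 reads added, the deposited fold changes and thresholds of 1.5-fold and 4-fold. Each count took only members at its floor, which were 3 at 50 normalized reads and all 6 with no floor. A floor of 200 and a threshold of 4-fold are stricter than the main rule, so they could not have added a member. The signs near 0 did depend on the scaling. Scaled to total reads, meaning the sums over the table, the log2 ratios were 0.15 for miR-320a, 0.25 for miR-320b, 0.12 for miR-484, 0.27 for miR-877-5p, 0.15 for the summed miR-320 members and 0.14 for the median of the 6, because this scaling adds 0.24 to every ratio. With totals that leave out the 10 most abundant miRNAs of either library, miR-320a was at -0.027, the summed miR-320 members at -0.023 and the median at -0.032. Without miR-320a the sum was at -0.043. Scalings by the median of ratios and by a trimmed mean of M-values moved every ratio by 0.032 and -0.017. The count of all miRNAs at least 2-fold apart was 36 and lay between 34 and 42 under other scalings. It was 66 at a floor of 10 normalized reads, 21 at a floor of 200 and 166 with no floor, and 78 at 1.5-fold and 7 at 4-fold, since these settings change how many miRNAs can pass. Depth limits miR-320d most, with 60 and 58 reads. No paired analysis was possible because each group has 1 library.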
